A study of Ovis aries with 7 samples.

Results

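Mediator is the large complex that carries signals from DNA-bound transcription factors to RNA polymerase II. Its core is built from a head and a middle, which touch the polymerase, a tail, which receives many activators, and the scaffold subunit MED14, which runs through all of them. A separate kinase module binds the core reversibly, and while bound it blocks the polymerase. Because every RNA polymerase II gene can use this complex, its subunits are of interest around the 8-cell stage, when ruminant embryos switch from stored maternal RNA to their own transcription.

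The Mediator subunit genes were taken by row name, as MED followed by a number (with or without a final L), plus the kinase module genes CDK8, CDK19 and CCNC. This gave 33 genes of 31304 rows in the table, of which 16526 carry a nuclear gene symbol. These are the subunit genes known in mammals, and the row names alone, not the values, decided which rows were taken. RNA came from 8-cell embryos of sheep, Ovis aries, made by in vitro fertilization (IVF, 3 libraries) or somatic cell nuclear transfer (SCNT, 4 samples in the labels), in which the nucleus of a body cell replaces that of the egg. Only the IVF libraries (3) could be tied to columns of the table by their labels. The table's other 4 columns of per-sample values bear a name, DFF, that no sample label holds, so SCNT embryos were not analysed here and no difference between SCNT and IVF is given. The sources used here do not give breed, sperm source or how many embryos went into a library.

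Levels are TPM, the share of transcripts after division by gene length and library total, which puts genes on a common scale. Whether polyA selection, amplification or gene length still affects the order of genes was not tested. Errors are SD over n = 3 libraries, which may in part be technical. TPM is a share, so a change in the total RNA of an embryo does not show in it. In whole embryos, likewise, a change in cell number and a change in RNA per cell cannot be told apart. No sequencing depth can be had from TPM, so no interval or detection limit is given. The libraries held 8766 to 9379 symbol genes at 1 TPM or more. Markers of embryos at genome activation summed to 693, 2048 and 918 TPM in replicates 1, 2 and 3 over the 5 listed genes in the table, and all 5 were highest in replicate 2, though DUXA was listed at 0 in the other libraries. Oocyte markers summed to 1589 to 2262 TPM over 9 genes, of which 8 reached 1 TPM in every library. Of other cell types, cumulus and granulosa markers reached 19.8 to 61.6 TPM in all over 8 genes, with FOXL2 and PTX3 at 0. The fibroblast list reached 11.3 to 19.2 TPM over 10 genes, with VIM the highest of them at 7.90 ± 1.25, and the sperm list 3.84 to 6.67 over 6 genes, with PRM1 and AKAP4 at 0.

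Nearly all Mediator genes had transcripts in IVF embryos, at very unequal levels. In every library, 29 of 33 members (87.9%) reached 1 TPM, against 49.0% of all symbol genes, and 16 of 33 (48.5%) reached 10 TPM, against 21.7%. The median member stood at 10.3, 16.8 and 12.7 TPM in replicates 1, 2 and 3, and the median symbol gene at 1.46, 1.74 and 1.32. By mean level 29 members lay above the median symbol gene and 4 lay below it, namely MED25, MED23, MED26 and MED7. Of the 32 members above 0, 21 had their highest value in replicate 2, 6 in replicate 3 and 5 in replicate 1. Of the 9190 symbol genes whose mean reached 1 TPM, 48.5, 15.7 and 35.8% did so in the same order, so many other genes also peaked in replicate 2. A count of members above a level describes this complex and was not tested, since genes of a complex are not independent.

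**Figure D1:**
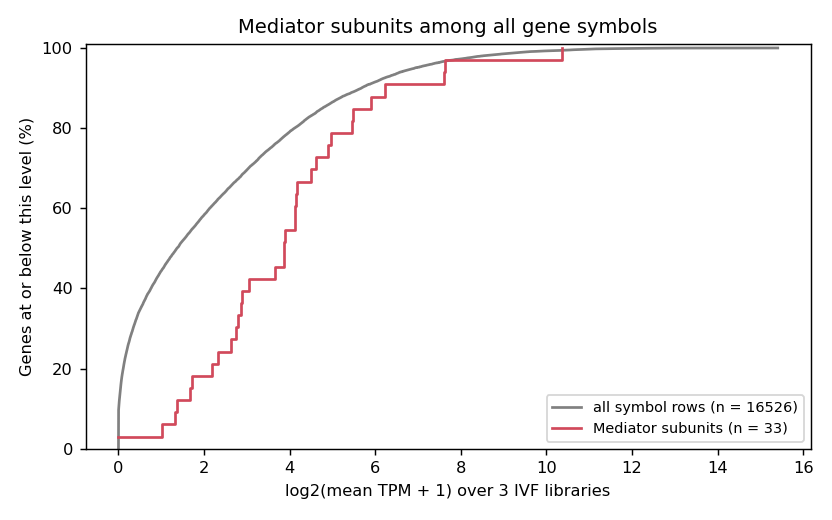
Cumulative share of genes (%, vertical axis) at or below a level of log2(mean TPM + 1) over the 3 IVF libraries (horizontal axis), for the 33 Mediator subunits and the 16526 symbol genes. The Mediator line lies to the right of the other up to the step of MED31 and MED29, where the lines come close. It lies to the right again over most of the stretch from there to its isolated last step, MED10.

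The middle module held both the highest and the lowest member. MED10, a small conserved middle subunit, was at 1331, 1196 and 1409 TPM in replicates 1, 2 and 3, a mean of 1312 ± 108. All 3 libraries were close together, and MED10 ranked 97th of the 16526 symbol genes. It alone made up 63.9, 55.0 and 60.2% of the summed TPM of the whole complex in the same order, and its mean was 6.67 times that of the next member. MED31, another small middle subunit, was at 154, 196 and 228 TPM, lowest in replicate 1. MED4 was at 98.2, 54.4 and 70.6 TPM, highest in replicate 1 and lowest in replicate 2. MED21 stood at 43.6 ± 11.0 TPM, MED19, which also links Mediator to the repressor REST, at 42.8 ± 7.96, and MED9 at 7.24 ± 2.19.

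MED1, the main docking subunit for nuclear receptors, was at 11.4, 25.8 and 14.0 TPM, with replicate 2 above both others. MED26, which brings elongation factors to the polymerase, was at 1.09, 1.22 and 0.714 TPM, below 1 TPM in replicate 3. MED7 was listed at 0 in all 3 libraries. MED7 is an essential subunit that pairs with MED21. In the RefSeq gene table it is also the single member of the 33 that lies wholly inside the span of another gene, HAVCR2, an immune receptor gene. HAVCR2 itself was at 0.0823, 0.451 and 0.274 TPM, under 1 TPM in every library. The sources used here do not say how reads in overlapping genes were counted, and a 0 in such a table can be a failed estimate.

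All 11 members of the head module reached 1 TPM in every library, against 49.0% of all symbol genes. So did 7 of 9 middle, 6 of 7 kinase and 4 of 5 tail genes and the scaffold MED14. The highest head member was MED29 at 154, 201 and 235 TPM, in the order of the libraries that MED31 showed. MED8 was at 38.6, 72.7 and 65.9 TPM, lowest in replicate 1. MED18 stood at 16.8 ± 4.60 TPM, MED30 at 16.5 ± 3.21, MED28 at 13.6 ± 3.74 and MED27 at 6.28 ± 1.17. MED17, the central head subunit on which much of the module is built, was among the lowest of them at 2.66, 6.10 and 3.20 TPM. MED22 was the lowest at 4.14, 2.53 and 3.94 TPM, the reverse of MED17 in that replicate 2 held its lowest value.

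3 head genes were uneven between libraries. MED6, which bridges head and middle, was at 14.9, 48.6 and 27.7 TPM. MED20 was at 6.72, 20.9 and 14.0 TPM, and MED11 at 6.36, 19.7 and 8.86. Each was lowest in replicate 1 and highest in replicate 2.

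The scaffold MED14 was at 12.7, 18.7 and 9.60 TPM, a mean of 13.7 ± 4.65, in the range of an ordinary head subunit. By median level the tail was the lowest module, with MED15 and MED24 above its other genes. MED15, a tail subunit that binds SREBP and SMAD factors, was at 50.2, 11.6 and 25.0 TPM, highest in replicate 1 and lowest in replicate 2. MED4, MED22 and MED30 had the same order of libraries, while 21 of the 32 members above 0 were highest in replicate 2. MED24 was at 6.45 ± 1.19 TPM, by mean above MED13L, CDK19, MED13 and MED12 of the kinase module. MED16 was at 1.82, 2.19 and 2.53. MED25, known as a target of strong viral and ETS-type activators, was at 1.49, 1.55 and 1.67 TPM, the smallest relative spread of any member above 0, with an SD of 5.92% of the mean. MED23, which receives signals through the MAP kinase target ELK1, was at 0.922, 2.41 and 1.21 TPM.

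**Figure D2:**
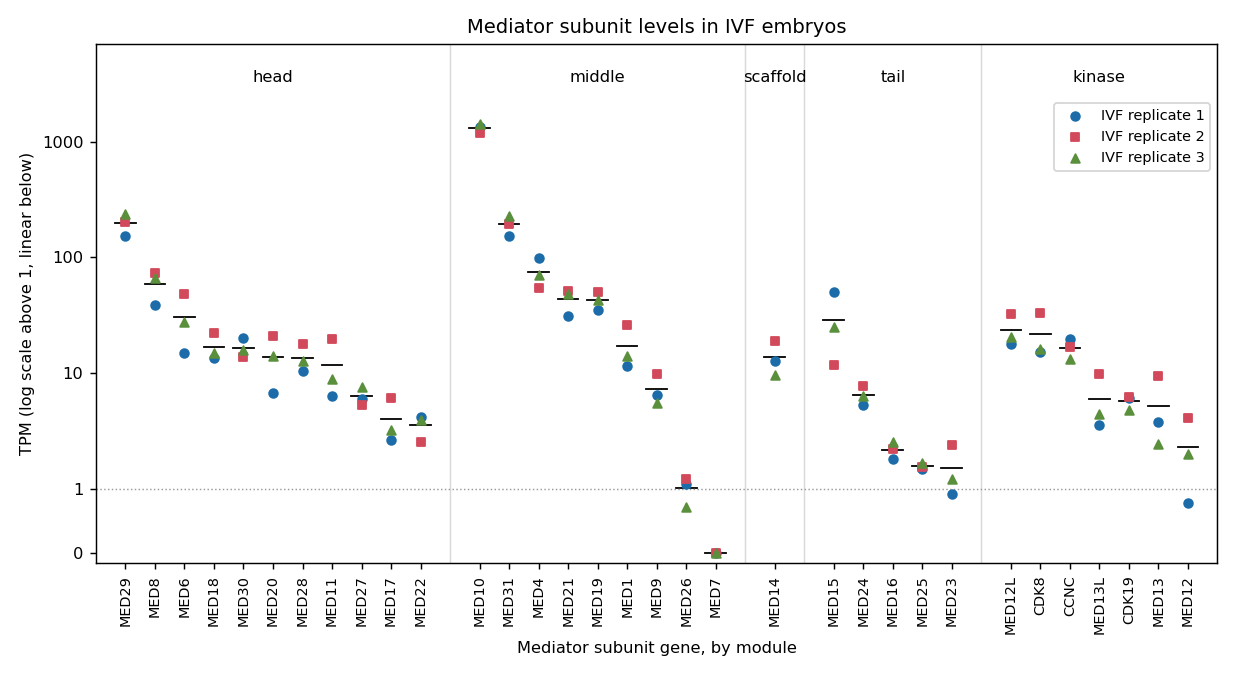
Level of each Mediator gene in TPM (vertical axis, logarithmic above 1 and linear below) by module (horizontal axis); each symbol is 1 IVF library and each short line the mean of 3. MED10 stands alone near 1312 TPM, MED7 is at 0 in all libraries, and 4 of 5 tail genes lie under 10 TPM.

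Module medians followed the same picture. The middle had the highest median, at 31.1, 50.6 and 43.0 TPM in replicates 1, 2 and 3, a mean of 41.6 ± 9.86 over 9 members. The head was at 10.3, 19.7 and 14.0, a mean of 14.7 ± 4.74 over 11 members, and the kinase module at 6.02, 9.86 and 4.82, a mean of 6.90 ± 2.63 over 7. The tail was at 1.82, 2.41 and 2.53, a mean of 2.25 ± 0.383 over 5. The order of middle, head, kinase and tail was the same in each library, and the ranges of these 4 medians over libraries did not overlap. With MED27, MED28, MED29 and MED30 counted with the tail, as in other subunit maps, the tail median was 7.08 TPM, close to that of the kinase module.

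Ordered by mean level, most neighbouring members had ranges over libraries that overlapped, in 28 of 32 adjacent pairs. Ranges pool the libraries, so an overlapping pair can still keep its order within each. That was so for MED8 over MED21, by 0.41 ± 0.10 on the log2(TPM + 1) scale. It was also so for CDK8 over MED1 (0.31 ± 0.11) and MED19 over MED6 (0.61 ± 0.56). In the other overlapping pairs the order differed between libraries. The 4 breaks, where ranges did not overlap, were between MED10 and MED29, between MED31 and MED4, between MED16 and MED25, and between MED26 and MED7. MED29 and MED31 formed a level of their own at 197 ± 40.7 and 193 ± 37.2 TPM, with a mean log2(TPM + 1) difference of 0.03 ± 0.03. Everything from MED4 to MED16 was a gradient without a break in these ranges.

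The kinase module is where Mediator has paralogs, and 2 of its 3 pairs were unequal. CDK8, the kinase itself, was at 15.3, 33.2 and 16.1 TPM, and its alternative CDK19 at 6.02, 6.22 and 4.82. Their ranges did not overlap, and CDK8 made up 71.8, 84.2 and 76.9% of the pair. The log2(TPM + 1) difference, CDK8 minus CDK19, was 1.67 ± 0.53 and positive in 3 of 3 libraries. CCNC, the cyclin that both kinases use, was at 19.5, 16.8 and 13.2 TPM, highest in replicate 1.

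The most unequal pair was MED12L and MED12. MED12, the subunit that activates the kinase in most tissues, was at 0.781, 4.10 and 1.99 TPM, below 1 TPM in replicate 1. MED12L, its less studied paralog, was at 17.8, 32.7 and 20.6 TPM, well above it in every library. By TPM the ratio of MED12L to MED12 was 22.9, 7.97 and 10.4, and MED12L made up 95.8, 88.8 and 91.2% of the pair. On the log2(TPM + 1) scale the difference was 2.99 ± 0.36, which the added 1 makes smaller because MED12 is low. The MED12L gene spans or overlaps 6 other protein-coding genes in the RefSeq table, P2RY12 and P2RY14 among them, while MED12 overlaps none. The table does not show how reads in shared stretches were divided.

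MED13 and MED13L, which tether the kinase module to the core, were near equal. MED13 was at 3.78, 9.47 and 2.43 TPM and MED13L at 3.58, 9.86 and 4.45, both highest in replicate 2. Their difference, MED13L minus MED13, was 0.22 ± 0.39, smaller than its SD, and its sign rested on replicate 3, without which it was -0.0036. Summed over paralogs, the kinases CDK8 and CDK19 stood at 27.2 ± 10.6 TPM and MED12 with MED12L at 26.0 ± 9.55. CCNC stood at 16.5 ± 3.15 and MED13 with MED13L at 11.2 ± 7.06. CCNC lay below both of the former sums in replicates 2 and 3, but in replicate 1, at 19.5 TPM, it lay above the MED12-type sum of 18.6. Summed kinase and summed MED12-type levels were within 4 TPM of each other in each library, at 21.3 and 18.6, 39.5 and 36.8, and 20.9 and 22.6 TPM.

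**Figure D3:**
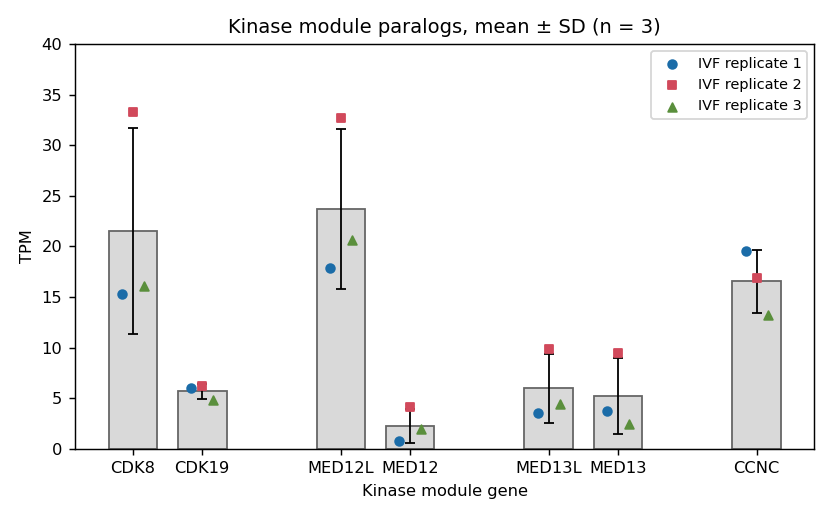
TPM (vertical axis, from 0) of the 7 kinase module genes; bars are means of 3 IVF libraries, error bars the SD and symbols single libraries. CDK8 lies above CDK19 and MED12L above MED12 in every library, while MED13L and MED13 overlap.

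With 3 libraries, exact sign-flipping of a pair's differences (two-sided) cannot go below p = 0.25, so no pair was tested. A further 4 pairs of subunits known to bind each other in the core were compared after their values had been seen. MED18 and MED20 were near equal in replicates 2 and 3, with TPM ratios of 1.05 and 1.07, but MED18 was 1.99 times as high in replicate 1. MED11 exceeded its partner MED22 by ratios of 1.53, 7.81 and 2.25, and MED4 exceeded MED9 by 15.2, 5.60 and 12.7. Replicate 2 set much of the first of these: the mean log2(TPM + 1) difference of MED11 and MED22 was 1.36 ± 1.07 over all libraries and 0.76 without it. Leaving out replicate 1 took that of MED18 and MED20 from 0.35 to 0.08. MED21 was at 31.1, 51.3 and 48.5 TPM while MED7 was listed at 0.

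Mediator genes were compared between libraries. The 25 members whose mean reached 5 TPM were examined, and 20 of them were higher in replicate 2 than in the mean of replicates 1 and 3, with a median log2(TPM + 1) difference of 0.52. Among the 5765 symbol genes at that level 58.9% were higher and the median was 0.16. A difference of 2-fold or more was reached in replicate 2 by 6 members upward (CDK8, MED6, MED11, MED13, MED13L and MED20), against 10.4% of symbol genes, and by MED15 downward, against 3.80%. The largest upward difference was that of MED13, 1.37, and MED15 differed by -1.53. With a pseudocount of 5 in place of 1, the upward count fell from 6 members to 1 of 25, against 4.93% of symbol genes, so the count was then no longer above the background. In replicate 1 the members lay lower, with 6 of 25 above the other libraries and a median of -0.42 against -0.02 for symbol genes. There MED15 was 2-fold higher, against 5.95% of symbol genes, and MED6 and MED20 2-fold lower, against 5.36%. In replicate 3 no member was 2-fold higher, against 0.416%, and MED13 was 2-fold lower, against 1.87%. With a pseudocount of 5 no member was 2-fold lower there, against 0.312% of symbol genes. Each of the 3 differences uses the same libraries, so they are not separate observations.

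The shift in replicate 2 depended on scaling. When libraries were scaled by median of ratios, the median symbol gene moved from 0.16 to -0.11 in replicate 2 and the 25 members from 0.52 to 0.25, and 16 of 25 were then higher. By quantile normalization the medians were 0.00 and 0.35, with 18 of 25 higher. Relative to the median symbol gene the 25 members lay 0.36, 0.36 and 0.35 higher in TPM, median-of-ratios and quantile scale. After median of ratios, however, only 24 members still had a mean of 5 TPM or more. Their median was 0.18, with 15 higher, so the gap on that scale was smaller with members and symbol genes filtered alike. Of the 25 members, MED11 and MED13 were 2-fold higher after median of ratios. Of the 24 members that still passed the filter on that scale, 1 was 2-fold higher, against 4.22% of symbol genes, near the background. After quantile normalization MED6, MED11 and MED13 were 2-fold higher, against 6.25%. CDK8, MED13L and MED20 no longer reached 2-fold under either rescaling. MED15 remained 2-fold lower in replicate 2 and 2-fold higher in replicate 1 under each of these scalings, while the share of symbol genes 2-fold lower in replicate 2 rose to 8.54 and 6.39%. The share 2-fold higher in replicate 1 was 6.80 and 6.08% after median of ratios and quantile normalization. MED6 and MED20 likewise remained 2-fold lower in replicate 1, against 4.45 and 5.51% of symbol genes. In replicate 3 MED13 was no longer 2-fold lower after either rescaling, at -0.87 and -0.83, where 0.750 and 0.764% of symbol genes were.

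By module, all 6 kinase genes at this level were higher in replicate 2, with a median of 0.89, and 4 of 6 after either rescaling, when CCNC and CDK19 fell to the other side. Head genes were higher in 7 of 9 (median 0.58) and middle genes in 5 of 7 (0.38), shares to be read against the 58.9% of symbol genes. Of the 2 tail genes at this level MED24 was higher and MED15 lower, with a median of -0.59. After median of ratios head genes were higher in 6 of 9 and middle genes in 4 of 7. The 58.9% holds for the TPM scale only. The median symbol gene was at -0.11 after median of ratios and -0.0003 after quantile normalization. The share of symbol genes higher on those scales is not given, so the rescaled counts have no background beside them. The genes of genome activation also peaked in replicate 2. ZSCAN4, a marker of the first burst of embryonic transcription, was at 54.7, 216 and 69.3 TPM, and the homeobox gene ARGFX at 376, 1022 and 444. Cumulus and granulosa markers were likewise highest there, chiefly through GJA1 at 9.09, 44.0 and 11.4 TPM, as were 8 of 10 fibroblast markers. Their part in the Mediator difference was not tested.

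**Figure D4:**
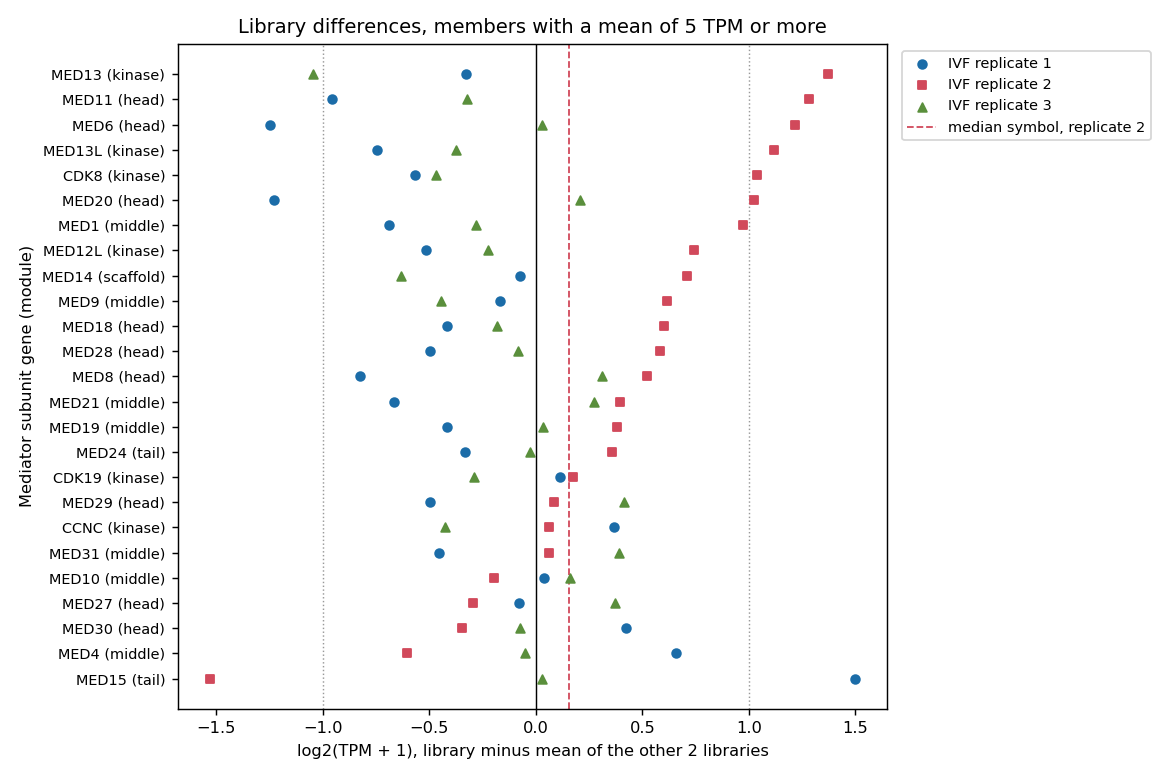
Difference of each IVF library from the mean of the other 2 on the log2(TPM + 1) scale (horizontal axis) for the 25 Mediator genes whose mean reached 5 TPM (vertical axis, ordered by replicate 2). Dotted lines mark 2-fold and the dashed line the median symbol gene in replicate 2, at 0.16; on the TPM scale 20 of 25 squares lie right of 0 and MED15 stands apart at the bottom.

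The relative spread of members was close to that of other genes, which were not matched to them for level. With the library differences included, the coefficient of variation over libraries had a median of 28.7% over the 32 members above 0 and 31.6% over those 9190 symbol genes. It ran from 5.92% for MED25 and 8.24% for MED10 to 71.5% for MED13 and 73.4% for MED12. Across the 32 members above 0, ranks in replicates 1 and 3 correlated with a Spearman coefficient of 0.968, replicates 2 and 3 with 0.942 and replicates 1 and 2 with 0.890. Over the 9190 symbol genes the coefficients were 0.942, 0.942 and 0.901 in the same order. Those of the members describe genes of 1 complex that share each library, and no p-value is given.

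The kinases and elongation factors that act on the polymerase after Mediator were well represented. Of 36 listed genes, 32 reached 1 TPM in every library, against 49.0% of all symbol genes, and 20 reached 10 TPM, against 21.7%. The median listed gene was at 14.0, 19.7 and 14.3 TPM in replicates 1, 2 and 3. This lay slightly above the median Mediator gene in each library. CDK7, the kinase of the general factor TFIIH, was even over libraries at 49.6, 51.0 and 53.4 TPM, and CDK9, the kinase that releases paused polymerase, was at 117, 91.7 and 68.9. Both lay above CDK8 in each library. CCNK, the cyclin of CDK12 and CDK13, was at 207 ± 3.36 TPM, far above CDK12 at 2.57 ± 1.72 and CDK13 at 1.47 ± 0.372. ELL2, a subunit of the elongation complex that MED26 recruits, was at 93.9, 325 and 122 TPM, highest in replicate 2. SUPT4H1 was listed at 0 throughout, as MED7 was.

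Factors known to contact Mediator were at lower levels, with a median of 2.60 ± 0.652 TPM. Of 24 listed genes, 14 reached 1 TPM in every library, against 49.0% of all symbol genes, and 6 reached 10 TPM, against 21.7%. Both counts are close to the background. The acetyltransferase EP300 was at 22.9, 46.5 and 30.7 TPM, beta-catenin CTNNB1 at 18.8, 38.0 and 20.6, and the cohesin loader NIPBL at 14.8, 32.3 and 14.2. These were highest in replicate 2, but over the whole list 11 genes were highest in replicate 2 and 11 in replicate 1. Of symbol genes whose mean reached 1 TPM, 48.5% and 35.8% were. SMAD2, a partner of MED15, was at 28.5, 11.6 and 10.3 TPM and highest in replicate 1. Among nuclear receptors, the partners of MED1, RARA was at 4.58 ± 1.42 TPM and VDR at 1.44 ± 1.15. ESR1 and RXRA were listed at 0 in all libraries, which, as for MED7 and SUPT4H1, can be a failed estimate. ELK1, the partner of MED23, was at 9.16 ± 1.51 TPM, above MED23 in all 3 libraries.

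Overlap with neighbouring genes limits some of these values. By RefSeq gene spans, 10 members overlap a protein-coding gene and 19 overlap no gene, and the strand used in counting is not stated, so reads of overlapping genes cannot be told apart. MED31 overlaps TXNDC17, a thioredoxin-like gene, which was at 37.1, 122 and 52.4 TPM and highest in replicate 2, where MED31 was not. MED11, which was highest in replicate 2, overlaps the chemokine gene CXCL16, listed at 0, 0.789 and 0 TPM. MED20 overlaps USP49, MED16 overlaps PLPPR3 and CFD, and CCNC overlaps TSTD3. MED6, MED13 and MED24, too, each overlap a protein-coding gene, which has a LOC identifier in place of a symbol and whose level is not given here.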

How the data were processed

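PolyA RNA was amplified over several PCR cycles and sequenced in read pairs with Smart-seq2, per the labels' protocols. The deposited values are TPM, summing to 1000000 in each column used. Per the submitters' processing notes, the authors used HISAT2 2.2.1 for alignment after fastp 0.23.4. Which sheep build, annotation and counter they used is not stated there. Columns were matched to samples by name, which left 4 columns of per-sample values unused. Members, modules and lists were chosen with earlier results of these data known, although the rule for members reads row names only. By the rule for named genes, the 5 highest and 5 lowest members, the extremes of each module, the whole kinase module and every member 2-fold apart in a library have each library's value. Symbol genes exclude LOC, tRNA and mitochondrial rows. All 33 members matched the ARS-UI_Ramb_v3.0 gene table, used for overlaps of genes and not for coordinates. A pseudocount of 1 was added before taking log2, so ratios of low genes come out too small. Each library was set against the mean log value of the other libraries, over symbol genes whose mean reached 5 TPM, and a step checked on simulated data counted 2-fold differences. No test between groups was made. Computation used pandas 2.3.3 and numpy 2.4.6 under Python 3.11.15, with scipy 1.17.1 for ranks and matplotlib 3.10.9 for plots.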

Additional observations from a re-analysis of the deposited data

How the results depend on the processing

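No paired analysis was possible because columns of only 1 group matched the labels. The planned relation of level to protein length was not run, since no protein lengths were used here. With every library kept, alternatives gave 69 values, of which 53 stayed within the spread between libraries or, for counts, within 1.5 times. The tail median, 2.25 TPM, became 2.68 with mitochondrially encoded and ribosomal protein genes removed, 7.08 with MED27 to MED30 in the tail and 4.31 over members at 1 TPM or more in all libraries. The kinase median, 6.90, became 11.0 over such members, fewer genes being counted. MED12L minus MED12, 2.99, became 3.54 with a pseudocount of 0.1 and 1.97 with 5, and MED21 minus MED7, 5.45, became 8.74 and 3.25, as MED7 is at 0. MED13L minus MED13, 0.22, ran from -0.0036 to 0.36 with libraries left out in turn. Members 2-fold higher in replicate 2, 6, became 1 with a pseudocount of 5 (symbol genes 4.93%), 1 after median of ratios (4.22%; 24 members then passing the filter) and 3 after quantile normalization (6.25%), so the first 2 counts were near the background. Members 2-fold lower in replicate 1, 2, became 1 with a pseudocount of 5. The 1 member 2-fold lower in replicate 3 became 0 with a pseudocount of 5, after either rescaling and with the minimum mean raised to 10 TPM. Members detected, 29, ranged from 29 to 31 with a library left out. The binding pairs of the core were added after seeing the data. The depth behind low values such as those of MED12 and MED26 is unknown.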
